A study of Mus musculus with 3 samples.

Results

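The sites described here are DLX3 peaks that share at least 1 bp with an H3K4me3 peak although their centre lies over 1 kb from every end of a protein-coding gene span. They number 2678 of the 18087 DLX3 peaks (14.8%, 95% Wilson interval 14.3 to 15.3) and are called members below. In all, 7615 DLX3 peaks (42.1%) met H3K4me3; the other 4937 of them lay within 1 kb of a coding gene end, and 10200 DLX3 peaks away from coding ends met no H3K4me3. Members were chosen by 2 measured values, the overlap with H3K4me3 and the distance from coding ends, so neither is a result. The peaks came from suprabasal keratinocytes, the epidermal cells that have left the basal layer and differentiate, of wild-type BALB/c mice. Chromatin immunoprecipitation and sequencing (ChIP-seq) was done with anti-Dlx3, with anti-H3K4me3 and with IgG, 1 library each, and peak lists of the DLX3 and H3K4me3 libraries were used. The sample labels give the mice as adult and the series text as neonatal, which was not settled. With 1 library per antibody there is no replicate spread and no test; intervals given for shares cover counting error within a list only.

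DLX3 is a transcription factor with a homeodomain that acts in keratinocytes as they differentiate, and homeodomains of its family bind sites with a TAATT core. H3K4me3, histone H3 trimethylated at lysine 4, marks the starts of transcribed genes, including those of noncoding RNAs and the inner starts from which a gene makes a shorter isoform. At genes that define a cell's identity the mark can spread over a long stretch of the gene, a broad domain. A DLX3 peak with H3K4me3 but far from a coding gene end can thus lie at a noncoding gene, at an inner start, in the flank of a broad domain, or at a marked site with no annotated start.

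Each member was put into the first of 4 position classes that it met. A noncoding end class held 367 members centred within 1 kb of an end of a noncoding gene (13.7%). A domain flank class held 616 whose H3K4me3 peak covered a coding gene end (23.0%). An inner site class held 1143 centred inside a coding gene span (42.7%), and an outside site class held the remaining 552 (20.6%).

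Starts of noncoding RNAs under the highest-scoring members, and those beside epidermal microRNA genes, are shown first because the noncoding members turn on them. Each window is the RefSeq promoter of the build GRCm38.p6 (mm10), 250 bases before the start and 50 from it, in the gene's direction. Capitals mark the homeodomain core (TAATT, or AATTA on the other strand) and the GC box of Sp and Klf factors (GGGCGG, or CCGCCC). A match is a match of letters only. The lncRNA 1700016A09Rik starts at chr8:120537677-120537976 on the minus strand, inside the gene Gse1. Mir22hg, the host transcript of miR-22, starts at chr11:75461289-75461588 on the plus strand. Mir205hg, the host of miR-205, starts at chr1:193510161-193510460 on the minus strand, and Gm13648, an lncRNA upstream of the miR-200b cluster, at chr4:156059753-156060052 on the minus strand. Gm41624, at chr17:79728628-79728927 on the minus strand, is shown as the lncRNA start under the highest-scoring member whose nearest lncRNA start window holds the homeodomain core.
1700016A09Rik: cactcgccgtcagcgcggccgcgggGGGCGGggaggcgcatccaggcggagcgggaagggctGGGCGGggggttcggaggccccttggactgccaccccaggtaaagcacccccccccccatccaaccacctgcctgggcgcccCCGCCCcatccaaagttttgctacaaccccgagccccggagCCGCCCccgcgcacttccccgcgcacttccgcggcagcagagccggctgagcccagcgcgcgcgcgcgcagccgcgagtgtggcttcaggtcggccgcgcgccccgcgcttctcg
Mir22hg: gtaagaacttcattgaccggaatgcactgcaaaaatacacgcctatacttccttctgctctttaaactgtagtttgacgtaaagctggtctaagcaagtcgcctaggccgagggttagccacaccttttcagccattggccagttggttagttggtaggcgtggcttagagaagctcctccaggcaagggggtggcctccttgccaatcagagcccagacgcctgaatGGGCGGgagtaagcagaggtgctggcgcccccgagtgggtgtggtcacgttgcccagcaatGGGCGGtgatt
Mir205hg: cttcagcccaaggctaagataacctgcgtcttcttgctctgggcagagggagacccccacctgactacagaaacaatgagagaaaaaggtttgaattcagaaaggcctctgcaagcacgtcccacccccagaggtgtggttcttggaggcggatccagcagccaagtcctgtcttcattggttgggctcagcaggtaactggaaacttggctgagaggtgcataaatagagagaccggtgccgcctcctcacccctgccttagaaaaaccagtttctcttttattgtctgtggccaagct
Gm13648: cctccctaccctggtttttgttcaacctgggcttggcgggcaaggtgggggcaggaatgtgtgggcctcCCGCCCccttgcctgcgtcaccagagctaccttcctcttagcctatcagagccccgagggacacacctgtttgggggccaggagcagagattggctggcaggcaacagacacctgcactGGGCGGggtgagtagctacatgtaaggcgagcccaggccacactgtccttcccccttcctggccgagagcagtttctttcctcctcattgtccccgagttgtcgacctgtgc
Gm41624: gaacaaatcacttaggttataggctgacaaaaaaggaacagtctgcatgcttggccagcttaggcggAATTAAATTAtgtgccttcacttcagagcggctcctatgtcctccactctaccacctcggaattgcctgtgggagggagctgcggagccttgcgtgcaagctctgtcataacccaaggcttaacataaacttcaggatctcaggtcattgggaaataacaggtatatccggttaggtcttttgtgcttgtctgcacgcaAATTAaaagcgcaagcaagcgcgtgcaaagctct
Matches to the homeodomain core numbered 3 in the Gm41624 window and 0 in the other windows of this set. GC boxes numbered 4 at 1700016A09Rik, 2 at Mir22hg and 2 at Gm13648, and none stood in the Mir205hg or Gm41624 windows. The DLX3 peaks over these starts scored 663.12, 475.92, 84.59, 174 and 275.76 in the order printed.

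A pair of starts inside coding genes stands for the inner sites. Ap5b1, which encodes a subunit of an adaptor complex of endosomes, has an annotated start at chr19:5567774-5568073 on the plus strand under the highest-scoring inner member within 1 kb of a coding start. Unk, which encodes an RNA-binding zinc finger protein, has one at chr11:116030066-116030365 on the plus strand, shown because it holds the homeodomain core.
Ap5b1: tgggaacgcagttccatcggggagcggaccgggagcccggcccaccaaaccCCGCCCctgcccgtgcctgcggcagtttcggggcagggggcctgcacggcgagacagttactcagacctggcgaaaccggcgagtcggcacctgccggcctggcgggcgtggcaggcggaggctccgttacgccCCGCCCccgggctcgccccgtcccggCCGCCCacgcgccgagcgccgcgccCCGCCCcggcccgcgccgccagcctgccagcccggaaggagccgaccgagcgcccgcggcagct
Unk: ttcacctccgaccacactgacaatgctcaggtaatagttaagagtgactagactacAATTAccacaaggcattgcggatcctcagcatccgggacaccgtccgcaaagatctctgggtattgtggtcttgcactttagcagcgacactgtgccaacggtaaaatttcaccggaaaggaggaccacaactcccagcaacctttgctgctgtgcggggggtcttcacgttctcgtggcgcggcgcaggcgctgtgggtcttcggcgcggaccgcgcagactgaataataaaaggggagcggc
Ap5b1's window had 4 GC boxes, a GC content of 78.7% and no homeodomain core. That of Unk had 1 homeodomain core, no GC box and a GC content of 55.3%.

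Letters were then counted over every RefSeq start window that met a member, 786 windows of 667 genes, and over all 32851 windows of the table. Promoters under members were rich in GC and in GC boxes and held the homeodomain core less often than promoters at large. Their median GC content was 63% against 52.7% over all windows, and 64.3% in the 5000 windows under marked DLX3 peaks at coding ends. GC boxes (GGGCGG on either strand) stood in 67.2% of windows under members (63.8 to 70.4), against 76.5% under the peaks at coding ends and 35.7% of all windows. TAATT on either strand stood in 16.3% (13.9 to 19.03), against 12.9% at coding ends and 27.03% of all windows. Among lncRNA windows the same share was 21.1% under members (16.2 to 27.1) and 33.6% of all. CCAAT, the box of NF-Y, was in 33.1%, against 38.8% at coding ends and 37.4% of all. TGANTCA, the AP-1 site, was in 5.85%, against 4.26% and 7.81%. TATAAA, the TATA box, was in 4.96%, against 4.56% and 13.6%. All of these shares but that of the NF-Y box moved with GC content across the 3 sets. The part of GC content was not tested. Members were chosen for H3K4me3, and marked windows without DLX3 were not counted. Whether these shares belong to DLX3 or to marked promoters in general thus cannot be told.

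Scores of members were like those of marked peaks at coding ends and above those of unmarked peaks away from them. The deposited score of a peak rises with the strength of its call, and scores are set side by side only within a list. The median DLX3 score was 93.1 over the members (interquartile range 68.07 to 142.385), 94.15 over the marked peaks at coding ends, 77.035 over the unmarked peaks away from them and 83.35 over all DLX3 peaks. In the highest-scoring 10% of the DLX3 list stood 14.9% of the members (13.6 to 16.3), 13.6% of the marked peaks at coding ends and 7.14% of the unmarked peaks (6.65 to 7.65). By class, the median score was 93.02 at noncoding ends, 90.435 in domain flanks, 91.7 at inner sites and 101.24 at outside sites. Outside sites also had the largest share in the highest-scoring 10%, at 19.02% (15.97 to 22.5), against 13.1% of the domain flanks (10.7 to 16.05), though these intervals touch.

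H3K4me3 under the members was split in strength. Its score was under 100, close to the lowest score in the list, at 18.7% of members (17.3 to 20.3), against 0.891% of marked peaks at coding ends and 13.2% of all 16735 H3K4me3 peaks. Counted by H3K4me3 peak, 20.2% of the 2369 under members scored under 100, against 33.1% of the 4928 with no coding end within 1 kb. The H3K4me3 score was 1000 or more at 45.7% of members, against 79.99% at coding ends. By class the share under 100 was 15.0% at noncoding ends, 21.5% at inner sites and 36.4% at outside sites, and no domain flank fell there (0 of 616, where 3 counts, the limit taken for a count of 0, would be 0.487%). The median H3K4me3 score was 879.88 at noncoding ends, 2632.24 in domain flanks, 566.26 at inner sites and 139.8 at outside sites. DLX3 and H3K4me3 scores were only weakly related. Across the 2678 members, which share both libraries, Spearman's rho between the scores was -0.028; by class it was -0.059 at noncoding ends, 0.107 in domain flanks, 0.024 at inner sites and -0.090 at outside sites. In domain flanks the median DLX3 score was 106.255 for the 10 members on H3K4me3 peaks scoring 100 to 300. It was 77.53 for the 60 on those scoring 300 to 1000 and 92.17 for the 546 on those of 1000 or more, so it did not rise steadily. H3K4me3 stood at the score ceiling of 3100 or above for 40.6% of domain flanks, which limits rho there. In the outside class the median DLX3 score was 110.24 for the 201 members on H3K4me3 peaks scoring under 100 and 90.8 for the 45 on those of 1000 or more.

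**Figure D1:**
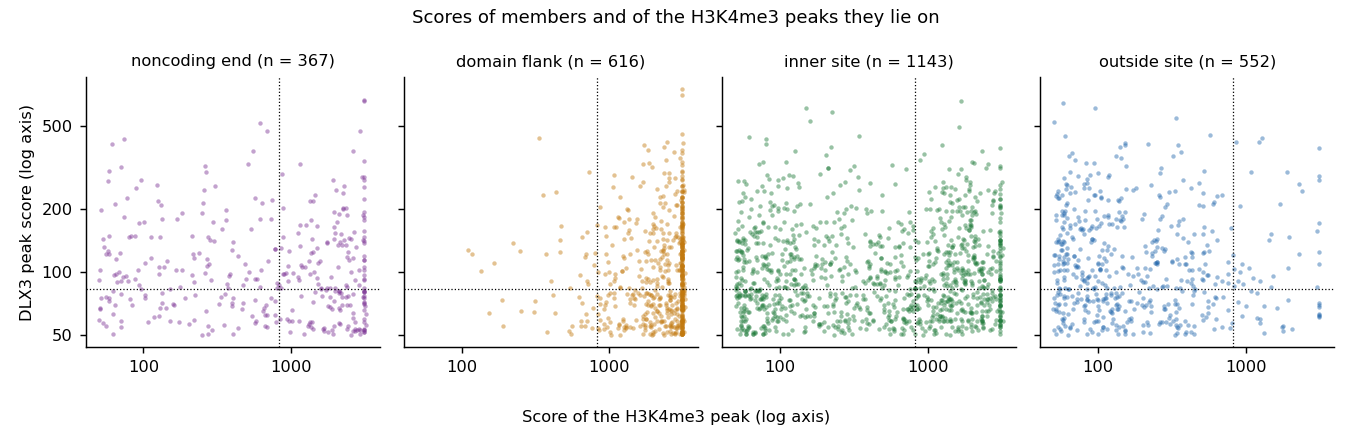
DLX3 peak score (vertical, log axis) against the score of the H3K4me3 peak it lies on (horizontal, log axis), 1 point per member and 1 panel per position class; dotted lines are the medians of each whole list, 83.35 for DLX3 and 823.67 for H3K4me3. Domain flanks crowd at the right, near the H3K4me3 ceiling of 3100, and outside sites at the left, while high DLX3 scores occur in all panels.

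Annotated starts lay near a part of the members. On the chromosomes that the start table covers (2618 members), 21.0% of members (19.5 to 22.6) were centred within 1 kb of an annotated coding start, against 80.6% of marked peaks at coding ends, 0.345% of unmarked peaks (0.247 to 0.482) and 25.8% of all DLX3 peaks. The share at coding ends is high because the rule placed those peaks at gene ends. An annotated lncRNA start was within 1 kb of 9.70% of members (8.63 to 10.9), 9.52% of marked peaks at coding ends and 2.27% of unmarked peaks. For either kind of start the share was 28.5% of members, against 28.6% of all DLX3 peaks. By class, a start of either kind was within 1 kb of 72.2% of the noncoding ends, 13.2% of the domain flanks, 36.1% of the inner sites and 1.11% of the outside sites (6 of 541). The class definitions set part of this order, since outside sites were kept away from every coding and noncoding gene end.

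**Figure D2:**
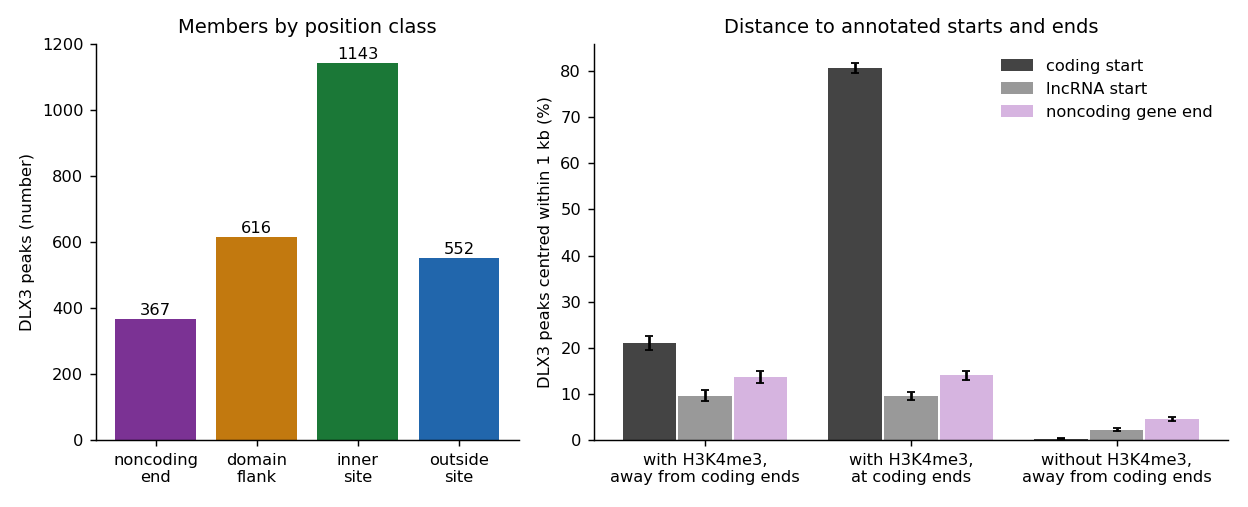
Left, number of members in each position class. Right, share of DLX3 peaks (%) centred within 1 kb of an annotated coding start, a lncRNA start or any noncoding gene end, for members, marked peaks at coding ends and unmarked peaks away from them; bars carry 95% Wilson intervals. Noncoding ends are near 13.7% of members, 14.1% of marked peaks at coding ends and 4.54% of unmarked peaks.

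Noncoding genes made up the first class. A noncoding gene end lay within 1 kb of 367 members (13.7%, 12.5 to 15.1), of 14.1% of marked peaks at coding ends (13.1 to 15.1), of 4.54% of unmarked peaks (4.15 to 4.96) and of 8.5% of all DLX3 peaks. Members and marked peaks at coding ends thus did not differ in this share beyond counting error, and both stood above the unmarked peaks. The nearest noncoding gene was an lncRNA for 320 of them, a tRNA for 17, a microRNA for 16, a spliceosomal or other snRNA for 8 and a snoRNA for 2; 4 had another type. Counted from the genes, 318 of 12731 lncRNA genes (2.50%) had a member within 1 kb of an end, 34 of 430 tRNA genes (7.91%) and 18 of 1228 microRNA genes (1.47%). Any DLX3 peak lay there for 10.3% of lncRNA, 13.7% of tRNA and 5.21% of microRNA genes. Neighbouring tRNA genes share peaks, so these genes are not independent. Coding genes also lay at this class, as 160 of the 367 members (43.6%) were centred inside a coding span. Of 356 on the chromosomes of the start table, 73 (20.5%) were also within 1 kb of an annotated coding start. That share was 21.0% over all members, and at these 73 the noncoding and the coding gene cannot be told apart.

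Neat1, the lncRNA that builds the nuclear bodies called paraspeckles, had the highest-scoring member of the class. This peak (chr19:5845162-5846457) scored 665.31, rank 26 of all DLX3 peaks, and was centred 329 bp from an end of Neat1. It lay with 3 further members, of scores 63.25, 62.74 and 394.68, on an H3K4me3 peak of 10232 bp, and the highest pair lay at the gene's right end. Malat1, a neighbouring lncRNA of nuclear speckles, carried 6 members on an H3K4me3 peak of 8696 bp (chr19:5796262-5804957), more than any other H3K4me3 peak. From left to right they scored 342.02, 289.04, 61.2, 61.58, 102.24 and 275.56, and DLX3 peaks covered 55.03% of that domain. RefSeq places the start of Malat1 at the right, on the minus strand. There the member of score 102.24 was centred 48 bp from the gene end. The highest, at 342.02, was centred 44 bp from the opposite end, so both ends held DLX3. That highest peak (chr19:5794488-5796805) overlapped only the left edge of the H3K4me3 peak and was centred beyond it. The scores of 289.04, 61.2 and 61.58 lay between the ends, and that of 275.56 was centred 1097 bp beyond the start.

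**Figure D3:**
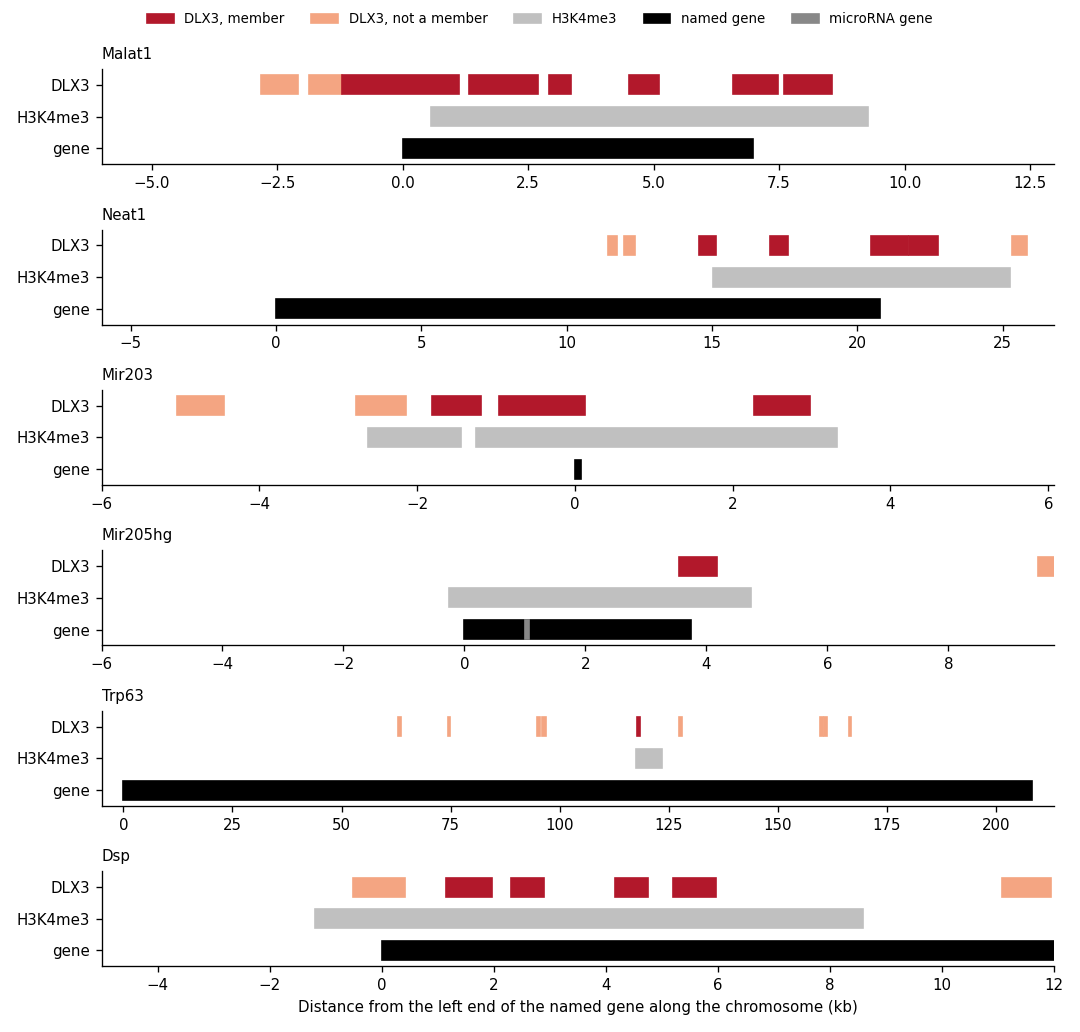
DLX3 peaks (members dark, other DLX3 peaks light), H3K4me3 peaks and gene spans at Malat1, Neat1, Mir203, Mir205hg, Trp63 and Dsp, by distance in kb from the left end of the named gene. Malat1 shows 6 members along a domain of 8696 bp, the leftmost centred beyond its edge. Trp63 shows 1 member on its inner H3K4me3 peak, and Dsp shows 4 members inside the gene on a domain of 9780 bp.

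Other lncRNA ends with high scores were spread over the genome. At 1700016A09Rik the member (chr8:120535548-120539260) scored 663.12 and spanned 3713 bp; its centre was also 5 bp from an annotated inner start of Gse1, so a noncoding and a coding start cannot be told apart there. Gm32998, beside Hes1, the Notch target gene that keeps progenitors from differentiating, had one of 519.87 (chr16:30069323-30070955), 2343 bp from an end of Hes1. A230028O05Rik, inside no coding gene and 66788 bp from the nearest coding end, at Lpp, had one of 476.85 (chr16:25058486-25060246). Mir22hg had one of 475.92 (chr11:75460888-75461749), centred 221 bp from its end. Gm35378 near Kctd15 had one of 433.25 (chr7:34629567-34631102) on a weak H3K4me3 peak of score 73.57. Across the 6 highest of the class, H3K4me3 scores ran between that value and 3123.47 at Neat1.

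MicroRNA genes of the epidermis were the next group. In the skin, miR-203 restrains the p63-driven growth of progenitors, and miR-205 and the miR-200 family belong to the epithelial state. Mature sequences from RefSeq (GRCm38.p6) are given for genes with a member within 5 kb, with the seed, bases 2 to 8, in capitals. Mir429 is added as part of the miR-200b cluster, with its nearest member 5278 bp away.
mmu-miR-203-3p: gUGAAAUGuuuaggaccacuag
mmu-miR-205-5p: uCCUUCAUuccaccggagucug
mmu-miR-200b-3p: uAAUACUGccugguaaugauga
mmu-miR-200c-3p: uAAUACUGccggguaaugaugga
mmu-miR-429-3p: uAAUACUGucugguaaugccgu
mmu-miR-200a-3p: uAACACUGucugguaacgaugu
mmu-miR-141-3p: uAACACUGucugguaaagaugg
mmu-miR-22-3p: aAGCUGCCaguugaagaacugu
mmu-miR-210-3p: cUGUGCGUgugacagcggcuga
mmu-let-7i-5p: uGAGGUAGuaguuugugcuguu
By seed, miR-200b, miR-200c and miR-429 shared AAUACUG, miR-200a and miR-141 shared AACACUG, and the other 5 each had their own. The miR-200 genes thus fall into 2 seed groups and lie in 2 clusters, on chromosomes 4 and 6, and both clusters had a member.

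Mir203 (chr12:112130880-112130955) had 3 members within 5 kb, more than any other microRNA gene named here. They scored 181.22 (chr12:112129066-112129695), 257.9 (chr12:112129924-112131007) and 121.89 (chr12:112133155-112133858). Its middle peak covered the gene, on an H3K4me3 peak of 4578 bp and score 2288.06. The miR-200b cluster on chromosome 4 (Mir200b, Mir200a, Mir429) had a single member of score 174 (chr4:156059265-156060347), 3515 bp from Mir200b and centred 4 bp from an end of Gm13648, whose start is printed above. At the other cluster, Mir200c and Mir141 had a member of score 66.18 (chr6:124718362-124719166) that overlapped Mir200c. Mir205 had its only one, 84.59, at the end of its host Mir205hg, 2481 bp away (chr1:193510011-193510630), and no other DLX3 peak within 5 kb. Scores at Mir200c and Mir205 were thus below the members' median of 93.1, and those at Mir203 above it. Mir210, a microRNA induced by hypoxia, had a member of 202.51 (chr7:141221605-141222318), and Mirlet7i, of the let-7 family of growth-restraining microRNAs, one of 91.41 (chr10:122985422-122986437). The Mir23a, Mir27a and Mir24-2 cluster shared one of 172.86 (chr8:84203091-84204102), and the Mir17 cluster with its host Mir17hg one of 68.07 (chr14:115040421-115040985). Mir21a had no DLX3 peak within 5 kb.

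Among the small structural RNAs, members at tRNA genes lay close to them and were weak. The 17 were centred at 19 to 609 bp from the tRNA gene's end, with a median of 119 bp, and 14 were within 250 bp. Their scores ran from 51.87 to 180.58 with a median of 76.65, below the 97.815 of the 320 members at lncRNA ends. The highest lay at the asparagine tRNA gene n-TNgtt14 (chr5:149228799-149229503). H3K4me3 at these tRNA genes scored 50.05 to 3142.77, with 10 of 17 at 1000 or more. Members also lay at Rnu11 (142.62, chr4:132269967-132270793), an RNA of the minor spliceosome, and at Rnu1a1 (78.98, chr11:87422688-87423385), a gene of U1; both were chosen after their values were seen. RNA genes of these families have many near-identical copies, and how reads with several matches were placed is not known here.

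Inner sites were the largest class and fell into a group at an annotated start and a group without one. Of 1114 inner members on the table's chromosomes, 400 (35.9%, 33.1 to 38.8) were centred within 1 kb of an annotated coding start inside the gene, and 364 of them within 500 bp. These had strong H3K4me3, with a median score of 1461.2 and a median width of 2667 bp, against 195.825 and 1926 bp for the 714 with no such start. Their DLX3 scores were alike, with medians of 91.93 and 91.585. The start table lacks some coding genes, and the host was in it for 529 of the 714. In all, 67.8% of members lay inside a coding span (66.1 to 69.6), against 47.8% of unmarked peaks away from coding ends (46.9 to 48.8). The share was 53.5% of marked peaks at coding ends and 52.3% of all DLX3 peaks. Peaks at coding ends lie by rule beside the edge of a span, so the rule sets part of that contrast.

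Position in the host gene also differed. Of the inner members at an annotated start, 55% (50.1 to 59.8) lay in the first 25% of their host, against 28.2% (24.5 to 32.1) of the 529 without a start whose host is in the table. The host's own 5′ end carried H3K4me3 within 1 kb for 57.5% of members at a start (52.6 to 62.3), against 75.2% of those without (71.4 to 78.7) and 57.9% of all coding genes in the table. A DLX3 peak was centred within 1 kb of it for 17.8% (14.3 to 21.8) and 34.6% (30.7 to 38.7).

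Ap5b1 led the inner members at a start, with a score of 497.39 (chr19:5567321-5568606), centred 61 bp from the start printed above. Other starts with high scores, chosen after their values were seen, were those of Mesd, which encodes a chaperone of Wnt co-receptors (408.04, chr7:83891472-83892473), Gsn, which encodes the actin-severing protein gelsolin (380.15, chr2:35266425-35267977), and Rassf1, a tumour suppressor gene known for its alternative promoters (336.02, chr9:107554057-107555090). H3K4me3 at these scored 1638.09 for Ap5b1, 1245.19 for Mesd, 126.38 for Gsn and 1996.76 for Rassf1. Gsn stood apart by its weak H3K4me3 peak.

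The highest inner members had no start of the start table within 1 kb. That table holds 17492 of the 21900 coding genes, so a missing start can be a gap of the table. For the Tead1 member below, the nearest coding start in it was that of Micalcl, 345766 bp away. Trim2, which encodes a ubiquitin ligase, had the highest at 661.57 (chr3:84191069-84192223), 21192 bp from the nearest annotated start, on an H3K4me3 peak of score 1668.95. Fry, which encodes a large scaffold protein of cell morphogenesis, had one of 609.87 (chr5:150262053-150263315), 2754 bp from an annotated start. Hdac5, which encodes a class II histone deacetylase, held 5 members between 102.51 and 582.95, its highest at chr11:102211595-102212394. Tead1, a transcription factor gene of the Hippo pathway, had one of 531.59 (chr7:112719888-112721358). Fbxo46, which encodes an F-box protein, had one of 450.07 (chr7:19131215-19131877). Under the highest member of each gene but Trim2, the H3K4me3 peak scored between 149.77 at Fry and 343.07 at Fbxo46, below the H3K4me3 median of 823.67. A further 3 Hdac5 members shared an H3K4me3 peak of 6733 bp and score 1369.90. By number of inner members, Aopep, an aminopeptidase gene, came first with 6, of scores 56.57 to 244.31, on a pair of broad H3K4me3 peaks.

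Trp63, which encodes p63, the master regulator of stratified epithelia, is known for an inner promoter that gives its ΔN isoform, the main one in epidermis. Its single member (chr16:25801509-25802093) scored 109.39 and lay 90287 bp from the nearest end of the gene, on an H3K4me3 peak of 6027 bp and score 2127.28. The gene and 5 kb on either side held 9 DLX3 peaks, of which this 1 met H3K4me3.

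Domain flanks held the widest marks, which their definition favours, since the H3K4me3 peak had to reach from a coding gene end to a DLX3 peak over 1 kb away. The median H3K4me3 width was 4773.5 bp in domain flanks, 2450 bp at noncoding ends, 2208 bp at inner sites and 1457 bp at outside sites, against 2080 bp over all H3K4me3 peaks. An H3K4me3 peak that covers a coding end carried 25.5% of all members (23.9 to 27.2). Counted by H3K4me3 peak, 24.1% of the 2369 under members covered one, against 65.2% of the whole H3K4me3 list. The distance rule left out DLX3 peaks at coding ends, so it sets part of this difference. Domain flanks were mostly on the gene side of the start. Of 607 on the table's chromosomes, 468 had an annotated start in the same H3K4me3 peak, and 391 of these lay over 1 kb from it. Of those 391, 314 (80.3%, 76.1 to 83.9) lay downstream. The share was 34.6% (33.1 to 36.1) of the 3880 marked peaks at coding ends within 1 kb of a coding start. These shares stand at unlike distances, over 1 kb and within 1 kb. How far the H3K4me3 peak reaches to each side of the start also limits where a member can lie. That reach was not counted. Among the 391, the median distance from the start was 2103 bp downstream and 1524 bp upstream, and 83.4% of the class lay inside a coding span. A further DLX3 peak at a coding end shared the H3K4me3 peak for 347 of 616 (56.3%, 52.4 to 60.2).

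Within the H3K4me3 peak, members were centred in the outer parts more often than marked peaks at coding ends were. The centre was in the outermost 25% at either side of the H3K4me3 peak, or beyond its edge, for 36.4% of members (34.6 to 38.3), against 23.8% at coding ends (22.6 to 24.97). The share was 52.1% in domain flanks, 26.7% at noncoding ends, 32.5% at inner sites and 33.7% at outside sites. These outer stretches together are as wide as the middle of the peak. Members of all classes but the domain flanks were thus centred more often in the middle. Domain flanks were spread about evenly, with 6.01% centred beyond an edge. In domain flanks the distance rule itself pushes the centre from the start, and likewise at the 66 of 367 noncoding ends (17.98%) whose H3K4me3 peak covers a coding end.

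**Figure D4:**
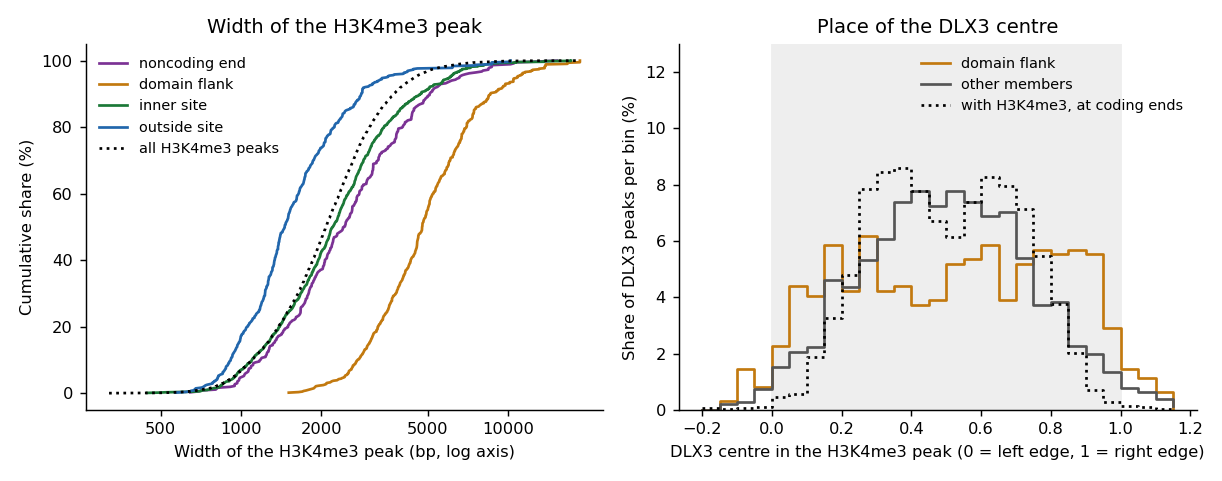
Left, cumulative share (%) of members by width of their H3K4me3 peak (bp, log axis), per class, with all H3K4me3 peaks dotted; domain flanks lie to the right (median 4773.5 bp) and outside sites to the left (1457 bp). Right, share of DLX3 peaks per bin (%) by place of their centre along the H3K4me3 peak (0 and 1 are its edges) for domain flanks, other members and marked peaks at coding ends (dotted); domain flanks are spread to the edges.

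Fos, an AP-1 subunit gene of the immediate early response, had the highest member of the class and of all members at 750.77 (chr12:85472843-85477584), a peak of 4742 bp over the gene with its centre 1323 bp from an end. Because this peak is so wide, it also covers the start. Itpkc, which encodes an inositol trisphosphate kinase, had one of 706.93 (chr7:27224708-27225695), 3416 bp inside from its start. Hes1 had one of 461.14 (chr16:30063873-30064685), 1078 bp from an end. Cirbp, the gene of a cold-induced RNA-binding protein, had one of 439.97 (chr10:80163556-80165638). One of 420.28 (chr12:84193615-84194406) lay over Gm31513 and Mideas, 5 bp from an annotated start of Mideas, a scaffold gene of a histone deacetylase complex. Zfp750, a transcription factor gene required for terminal epidermal differentiation, had one of 415.45 (chr11:121515832-121517538). H3K4me3 under all of these but Cirbp scored 2447.38 or more, with 334.91 at Cirbp. Dlx3 itself had a member of 185.43 (chr11:95117709-95118926), 1800 bp outside the gene, on an H3K4me3 peak of 8290 bp and score 2724.08.

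Most H3K4me3 peaks with a member held only 1. The 2678 members lay on 2369 H3K4me3 peaks, of which 2122 held 1 member, 247 more than 1, 50 held 3 or more and 10 held 4 or more. Malat1 had 6, and 9 peaks had 4 each; the 5 widest of these 9 were at Tfap2a, Zbtb7b, Kdm6b, Neat1 and Dsp. Tfap2a, which encodes the epidermal transcription factor AP-2α, had the widest domain with a member, 18614 bp (chr13:40721832-40740445), with scores of 115.92, 66.83, 134.6 and 66.78. Zbtb7b, a zinc finger repressor gene, had scores of 184.17, 59.51, 92.97 and 125.45 on 13846 bp. Kdm6b, which encodes a demethylase of the repressive H3K27me3 mark, had 53.96, 58.18, 210.19 and 245.8 on 13729 bp. Dsp, which encodes the desmosome protein desmoplakin, had 164.31, 112.08, 86.47 and 72.57 on 9780 bp, all inside the gene within 5576 bp of its start. Along Dsp the scores were lower with each step into the gene, and along Kdm6b they were lower away from the near gene end, at 1365 bp from it for the highest. Other wide domains with a member were at Gata3, a transcription factor gene of epidermis and hair (203.89, chr2:9877906-9879281, 17243 bp), Ptch1, the gene of the Hedgehog receptor (174, chr13:63562795-63563793, 16710 bp), and Irx2, a homeobox gene, with its neighbour Gm20554 (225.52, chr13:72628259-72629727, 15255 bp).

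Outside sites, which lie outside coding spans but can lie inside noncoding genes, were mostly on narrow and weak H3K4me3, with a median width of 1457 bp and a median score of 139.8. H3K4me3 scored 1000 or more at 45 of the 552, among them the outside sites on the Malat1 and Neat1 domains. Of the 552, 137 were within 5 kb of a coding end, 211 between 5 and 20 kb and 204 (37.0%, 33.0 to 41.1) beyond 20 kb, of which 37 were beyond 100 kb. Gm572 was the coding gene nearest to the highest, at 645.59 (chr4:148711975-148713728), 35746 bp away. Jun, an AP-1 subunit gene, was nearest to one of 609.05 (chr4:95160828-95162309) at 109346 bp. Cd83, which encodes a membrane protein of immune cells, was nearest to one of 548.49 (chr13:43864373-43864916) at 61511 bp. Irx2 was nearest to one of 525.06 (chr13:72710883-72712426) at 77458 bp, and Psen2, which encodes presenilin 2 of the γ-secretase that cleaves Notch, to one of 449.97 (chr1:180279635-180280423) at 16562 bp. Midn, which encodes a protein of ubiquitin-independent protein breakdown, was nearest to one of 453.12 (chr10:80159826-80161801) at 2445 bp. H3K4me3 scored 50.8 to 96.22 at Gm572, Jun, Irx2 and Psen2, close to the lowest of the list, and 338.89 at Cd83 and 571.88 at Midn. A nearest gene is only the nearest, and none is shown to be a target. Near Krt72, a keratin gene of the hair's inner root sheath, a pair of members scored 228.63 and 180.05 on 1 H3K4me3 peak of 4081 bp and score 264.59, 5503 and 3758 bp from the gene. Cd3g and Tyrobp, genes of immune cells, had 1 DLX3 peak each within 5 kb and no member.

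From the side of H3K4me3, 4928 peaks had no coding gene end within 1 kb, and 33.0% of these (31.7 to 34.3) met a DLX3 peak. Of the 11807 that covered or neighboured a coding end, 43.9% (43.1 to 44.8) did. Among the 4928, those with DLX3 were wider and stronger, with a median width of 1786 bp and score of 253.3, against 1377 bp and 152.57 without DLX3. A wider peak meets other peaks more easily, and the part of width in this difference was not tested.

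Known groups of epidermal genes were then counted for a member in the gene span or within 5 kb. The lists were chosen with earlier results of these data known, so their counts are descriptions. Transcription factors of keratinocytes had a member at 34 of 60 genes (56.7%), against 8.74% of all 21900 coding genes. A DLX3 peak of any kind lay at 54 of the 60. The share of all coding genes with any DLX3 peak was not counted, so whether these high shares are particular to members cannot be told. Fos, Hes1, Zfp750 and Grhl3, a factor gene of barrier formation (384.94, chr4:135570094-135570847), had the highest scores, and the list rested on 59 distinct members. Of the junction and adhesion genes, 40 of 42 had any DLX3 peak and 22 (52.4%) had a member. Nectin1 (443.4, chr9:43787228-43788115) and Nectin4 (344.14, chr1:171375464-171375960), genes of adhesion molecules of adherens junctions, Cldn1, which encodes claudin 1 of tight junctions (385.71, chr16:26368044-26369859), and Perp, a desmosome gene (336.46, chr10:18850017-18850728), were highest. Of these, Nectin1 was an inner site on H3K4me3 of score 61.87, and the others were domain flanks.

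Of genes known to have more than 1 promoter, 36 of 48 had any DLX3 peak and 22 (45.8%) had a member. Beside Tead1, the highest were Rara, a retinoic acid receptor gene (412.99, chr11:98925054-98926541), Foxp1, a forkhead factor gene (329.47, chr6:98949589-98950581), and Rxra, which encodes the partner of nuclear receptors (208.69, chr2:27703196-27703999). The Rara member lay outside coding spans and 1855 bp from Cdc6, so the neighbours cannot be told apart. H3K4me3 under these members was weak, at 72.74 for Foxp1, 73.59 for Rxra, 159.95 for Tead1 and 216.75 for Rara. The nearest coding start in the start table was 5695 bp away for Rxra, 11899 bp for Rara and 78213 bp for Foxp1. None of these members is thus shown to lie at an inner promoter. Of the genes of Notch, Wnt, BMP, TGF and EGF signalling, 44 of 56 had any DLX3 peak and 25 (44.6%) had a member. After Hes1 these were led by Rbpj, the DNA-binding partner of Notch (316.52, chr5:53588864-53589695), and by Id3 (299.89, chr4:136146086-136147298) and Id1 (246.03, chr2:152739001-152739731), BMP target genes that encode inhibitors of bHLH factors.

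Of microRNA genes and hosts of the epidermis, 24 of 69 (34.8%) had a member, against 5.37% of all microRNA genes and 5.43% of all lncRNA genes, but clustered genes share peaks and the 24 rested on 17 distinct members. Any DLX3 peak lay at 28 of the 69. Of known long and structural noncoding RNA genes, 34 of 67 had any DLX3 peak and 20 (29.9%) had a member. Behind Neat1 and Malat1, Ftx, an lncRNA of the X inactivation centre (261.68, chrX:103621978-103622727), and Trp53cor1, a p53-induced lncRNA beside Cdkn1a (226.54, chr17:29078177-29079379), were highest. Of all tRNA genes, 13.3% had a member in the span or within 5 kb. Long genes and genes with wide H3K4me3 meet more peaks, and their part in these shares was not tested.

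**Figure D5:**
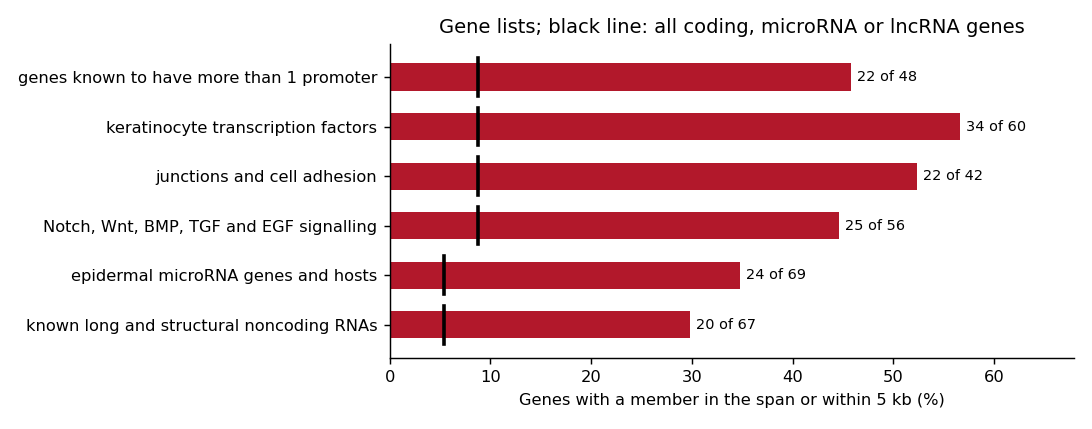
Share (%) of the genes of each list with a member in the span or within 5 kb, with the counts beside the bars; the black line is the share over all coding genes (8.74%), all microRNA genes (5.37%) or all lncRNA genes (5.43%). The keratinocyte transcription factor list stands highest at 34 of 60 and the noncoding RNA list lowest at 20 of 67.

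The labelled cell type was checked with H3K4me3 within 1 kb of a gene end of marker genes. The mark was present at 17 of 20 markers of suprabasal keratinocytes, without Cdsn, Flg and Tgm3. Of basal keratinocyte markers 9 of 11 had it, without Lamb3 and Trp63. Trp63 has an H3K4me3 peak of score 2127.28 inside the gene, which a check of gene ends does not see. It was present at 3 of 16 markers of immune cells and 3 of 10 of endothelial cells, and absent at Ptprc, Cd3e, Pecam1 and Cdh5. Markers of fibroblasts had it at 7 of 10, of neurons at 6 of 8 and of melanocytes at 4 of 8. Of all coding genes in the start table, 57.9% had H3K4me3 within 1 kb of their 5′ end alone. The counts for these 3 types are thus not far from the share of genes at large. A member lay in or within 5 kb of 9 suprabasal, 4 basal and 1 melanocyte marker, and of no immune, fibroblast, endothelial or neuron marker. The part of other cell types in the peaks was not tested.

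At the edge of the distance rule, the members nearest to 1 kb lay at Natd1 (1001 bp, score 79.98), Hbp1 (1002 bp, 284.3) and Sp3 (1004 bp, 80.56). The marked peaks just left out lay at Ankrd11 (1000 bp, 67.24), Reep4 (998 bp, 209.42) and Mfsd12 (995 bp, 62.9).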

How the data were processed

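DLX3 and H3K4me3 peak lists from ChIP-seq of suprabasal keratinocytes were used, 1 library each; the IgG library was not analysed here. The submitters' processing notes name Bowtie 1.1.2, MACS 1.4.2, HOMER and the build mm10. Both lists are named with IgG, but whether IgG served as their control, the settings and the placing of reads with several matches: not given in the sources used here. Each deposited list gives a position and a score per peak, between 50.01 and 3100 (DLX3) or 50 and 3233.06 (H3K4me3); 766 H3K4me3 peaks stand at exactly 3100. Such values look like MACS peak scores; these depend on depth and width, and were compared only inside 1 list. Depth is unknown, as the lists hold no read counts.

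Positions count from 1. Genes were RefSeq spans of GRCm38.p6, the assembly of mm10 (49997 genes, 21900 coding, 16965 noncoding). A peak's centre was measured to both ends of each span. Annotated starts, strands and promoter letters came from a RefSeq table of 32851 windows of 27025 genes. It holds 17492 of the coding genes, so a peak with no start nearby may lie at a gene that the table lacks. A further 60 members on a chromosome outside the table were not set against starts. No genome was used, so letters under members elsewhere were not read, and exons were not told from introns. A member was linked to the H3K4me3 peak it overlapped most. Computations used Python 3.11.15, pandas 2.3.3, numpy 2.4.6, scipy 1.17.1 and statsmodels 0.14.6, and the interval arithmetic was tested on simulated data.

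The members and the gene lists were chosen with earlier results of these data known. Named genes were the 6 highest-scoring members of each class, the members on the 6 widest H3K4me3 peaks, the 6 H3K4me3 peaks with most members, up to 4 highest-scoring genes per list (further microRNA genes are added) and Dlx3, Trp63, Mir203, Mir205, Mir200b, Mir21a, Krt72, Cd3g and Tyrobp; others are said to be chosen after their values were seen. The symbols Mir31hg, Mir24-2hg, Mir210hg, Cytor and Ptov1as1 matched no gene. Alternatives changed the overlap, the distance, the coding gene set, the score minimum and the noncoding window.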

Additional observations from a re-analysis of the deposited data

How the results depend on the processing

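Of 57 alternative values of 6 quantities, 36 stayed within the main value's counting interval or, for counts, within 1.5 times of it. The main values were 2678 members, 13.7% at noncoding ends, 25.5% on an H3K4me3 peak that covers a coding end and 67.8% inside coding spans. The median score was 93.1. Of members, 36.4% were centred in the outermost 25% at either side of the H3K4me3 peak, or beyond it (near an edge). Those stretches together are as wide as the middle of the peak. Requiring the DLX3 centre inside H3K4me3, or at least 50% cover, gave 33.5% and 33.6% near an edge. The share on an H3K4me3 peak covering a coding end was 35.4% with a distance of 500 bp, 13.5% with 2 kb, 20.2% with the whole peak over 1 kb away, 49.3% with distance taken to coding starts only and 32.9% when H3K4me3 within 1 kb of an end sufficed. The share inside spans was 65.3% with 2 kb and 57.1% with coding starts only. With both lists at or above their median score, 748 members remained, with a median score of 133.19, 45.2% on such an H3K4me3 peak and 82.2% inside spans. In the top 20% of both lists these were 226, 197.03, 56.2% and 79.2%, with 16.4% at noncoding ends and 34.1% near an edge. A noncoding window of 500 bp gave 9.63% and one of 2 kb 19.6%. Each alternative's own construction changes these values, since a shorter or longer distance admits or drops peaks beside genes and a score minimum drops weak H3K4me3; other causes were not tested. No paired analysis was possible because each antibody has 1 library and no result comes from a test between samples. For the same reason no replicate could be left out. Unknown depth limits every share, as weak sites below the call threshold are not in the lists.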
